A study of Mus musculus with 4 samples.

Results

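The comparison described here set a culture with IL-6 beside a culture without it, in mouse CD4+ T cells that carried a control retrovirus encoding GFP and no other protein. Of the 4 RNA-seq libraries of the study, it used the 2 made with the GFP-only virus, 1 labelled Tfh-like and 1 labelled Th0, and it joined their read counts gene by gene on the gene symbol. Naive CD4+ T cells came from spleen and lymph nodes of wild type C57BL/6 mice aged 7 to 8 weeks. They were activated and transduced under neutral conditions, sorted for GFP and then placed in culture. Antibodies against IFN-gamma, IL-4 and IL-2 were present in both cultures, and IL-6 was added only in the Tfh-like one. The other 2 libraries carried a virus with Tox2 and GFP in the same cultures, and they are given beside the GFP pair where stated. The labels do not say how many mice gave the cells or whether the cultures shared mice. The study as a whole asked how Tox2, a DNA-binding protein of the TOX family, acts in Tfh differentiation, and the GFP pair gives the response to the culture without forced Tox2.

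IL-6 binds the receptor chain Il6ra together with gp130 (Il6st), which activates the kinases JAK1, JAK2 and TYK2 and the transcription factor STAT3. In CD4+ T cells STAT3 is known for inducing IL-21 and the factors Batf and Maf, and for taking part in both the T follicular helper (Tfh) program, which Bcl6 directs, and the Th17 program, known for IL-17 cytokines. IL-2, which acts through STAT5, opposes the Tfh program, and both cultures held an antibody against it. SOCS proteins are induced by STATs and inhibit the same receptors.

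With 1 library in each group there was no replicate check, no p-value is given, and each difference is between these 2 libraries. A difference is given as the log2 fold of CPM (counts relative to library size, scaled by TMM), Tfh-like over Th0, with a 95% interval that covers counting error only. Where a pair of counts is given for a gene, that of Th0 comes first. A gene was called higher or lower where it was at least 2-fold apart and the interval did not include 0. Of 10960 genes compared, 853 were called higher in Tfh-like (7.78%) and 341 lower (3.11%), 1194 in all (10.9%). The numbers called in each gene list below are to be read beside these shares over all genes. A difference of at least 4-fold was seen in 281 higher and 85 lower genes, and one of at least 8-fold in 104 and 28. The median log2 fold over all genes was -0.01, with a 5th percentile of -0.80 and a 95th of 1.36. Around the threshold, 168 called genes had a log2 fold between 1 and 1.1 in size, and 219 genes had one between 0.9 and 1 and were not called. Genes called higher took 2.41% of the counts in Th0 and 7.12% in Tfh-like, and genes called lower took 1.74% and 0.583%. The genes were selected by their fold in these same libraries, so the direction of both changes follows from the selection.

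**Figure D1:**
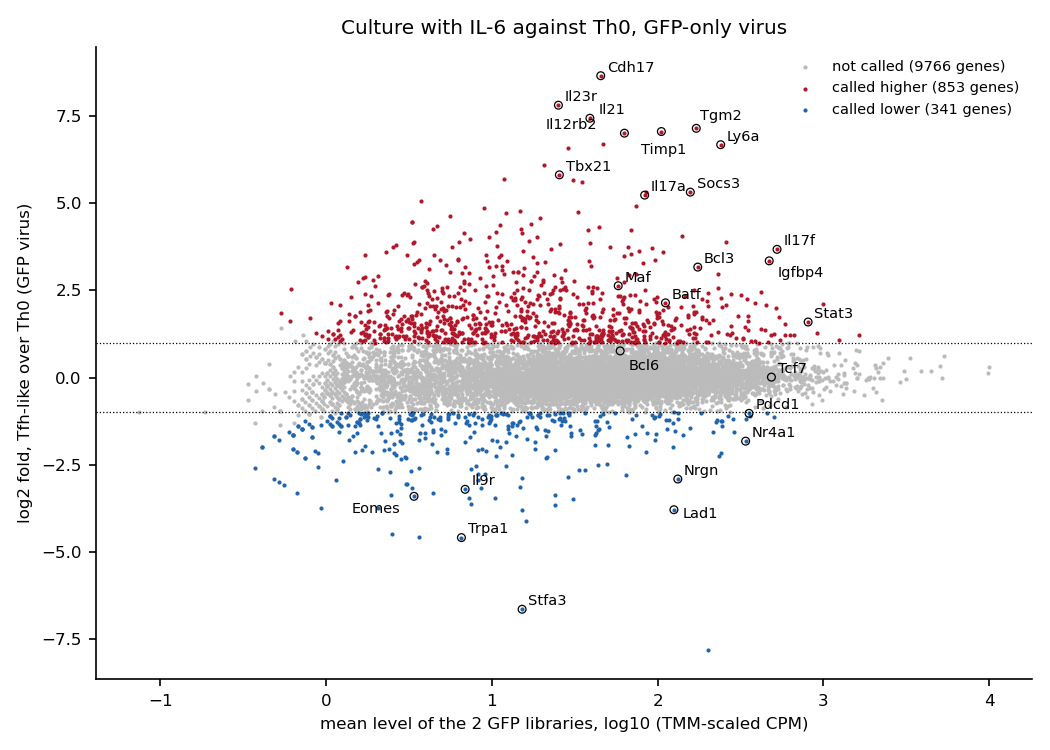
Each point is 1 of 10960 genes, with the log10 mean level of the 2 GFP libraries on the x axis (TMM-scaled CPM) and the log2 fold of Tfh-like over Th0 on the y axis; dotted lines mark 2-fold and colours mark the 853 genes called higher and the 341 called lower. The highest point is Cdh17, with 1 and 1183 counts and a log2 fold of 8.67 that depends on the prior count added (9.67 with 0.5 and 6.80 with 10), and the lowest point, without a name, is Gm10800 at -7.83.

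The 2 GFP libraries held 13015283 counts in Th0 against 13518274 in Tfh-like, so that a count of 0 allows up to 0.223 and 0.230 CPM. T-cell markers, Cd4 among them, were present in both: 11 of 12 were listed, with a summed level of 6456 CPM in Th0 and 6665 in Tfh-like. Cd4 had 17253 and 14423 counts, and Cd2 was the 1 marker of these called higher (1.35). Of 7 B-cell markers only Cd79a (19 and 10 counts) and Ebf1 were listed, and Ebf1 was called higher (4.16). Of 4 NK-cell markers only Klri2 (22 and 22) was listed. Of 8 macrophage and dendritic markers Itgam (19 and 6), Cd14 (20 and 11) and Cd68 (99 and 91) were listed. All 3 of these were below 0 (median log2 fold -0.72), and Itgam was called lower (-1.36), though not with a prior count of 10 (-0.84). No marker of gamma delta T cells or neutrophils was listed. Of 6 stromal and endothelial markers Pecam1 (1867 and 1164) and Col1a1 (71 and 176) were listed, and Col1a1 was called higher (1.33). Which cells these transcripts came from was not tested. In bulk RNA a smaller share of cells that express a gene and less RNA of it per cell cannot be told apart. Mitochondrially encoded transcripts took 2.45% of counts in Th0 and 1.99% in Tfh-like.

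Some genes of the response are shown first by their promoters, because they hold a match to a letter pattern that covers a STAT or an AP-1 and BATF motif. The set was chosen after its expression values were seen. Each window is from RefSeq on the GRCm38.p6 build and runs from 250 bases before to 50 bases after the annotated start, read 5′ to 3′ on the gene's strand. Capitals mark the letters TTCNNNGAA, the palindrome bound by STAT factors, or, in Il17a, TGANTCA. The latter is wider than TGA(C/G)TCA, the core bound by AP-1 and BATF dimers. The match in Il17a, TGAATCA, has A at its centre and so is not that core. Both motifs read the same on either strand. Socs3 (chr11:117969317-117969616, minus strand) holds a match whose first base lies 154 bases before the start.
Socs3: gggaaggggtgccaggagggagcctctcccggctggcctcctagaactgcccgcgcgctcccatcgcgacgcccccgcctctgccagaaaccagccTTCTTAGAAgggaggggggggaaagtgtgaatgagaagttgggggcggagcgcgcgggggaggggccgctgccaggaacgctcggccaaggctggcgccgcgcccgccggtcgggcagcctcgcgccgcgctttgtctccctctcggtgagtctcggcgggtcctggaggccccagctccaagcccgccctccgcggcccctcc
Il12rb2 (chr6:67376139-67376438, minus strand) holds one 123 bases before the start.
Il12rb2: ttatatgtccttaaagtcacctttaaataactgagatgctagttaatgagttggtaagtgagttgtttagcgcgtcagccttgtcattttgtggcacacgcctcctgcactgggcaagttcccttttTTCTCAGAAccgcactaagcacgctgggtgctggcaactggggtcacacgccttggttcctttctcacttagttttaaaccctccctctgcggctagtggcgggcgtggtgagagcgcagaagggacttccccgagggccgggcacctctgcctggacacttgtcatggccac
Bcl6 (chr16:23988803-23989102, minus strand) holds the same 9 letters as Il12rb2, 118 bases before the start.
Bcl6: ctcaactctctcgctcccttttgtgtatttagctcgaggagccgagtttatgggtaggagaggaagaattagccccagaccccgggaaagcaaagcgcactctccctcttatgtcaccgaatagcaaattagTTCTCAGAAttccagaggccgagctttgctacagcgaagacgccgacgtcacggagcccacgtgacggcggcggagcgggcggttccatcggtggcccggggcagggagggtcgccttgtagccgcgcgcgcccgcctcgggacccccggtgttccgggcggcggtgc
Irf1 (chr11:53769764-53770063, plus strand) holds one 90 bases before the start.
Irf1: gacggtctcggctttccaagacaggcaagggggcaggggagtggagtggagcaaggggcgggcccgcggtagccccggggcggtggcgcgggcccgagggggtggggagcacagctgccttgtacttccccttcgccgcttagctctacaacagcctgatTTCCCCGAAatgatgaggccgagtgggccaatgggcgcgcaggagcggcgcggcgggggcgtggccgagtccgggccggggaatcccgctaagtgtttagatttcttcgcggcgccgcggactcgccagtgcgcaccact
Cish (chr9:107296409-107296708, plus strand) holds a pair of matches, the first beginning at the start and the second 11 bases after it.
Cish: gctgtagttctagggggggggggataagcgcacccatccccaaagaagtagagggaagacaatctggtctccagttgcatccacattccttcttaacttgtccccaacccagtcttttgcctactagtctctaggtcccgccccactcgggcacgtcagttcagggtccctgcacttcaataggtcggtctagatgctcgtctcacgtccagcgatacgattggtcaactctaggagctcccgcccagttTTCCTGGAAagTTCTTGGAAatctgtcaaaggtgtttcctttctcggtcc
Il17a (chr1:20730655-20730954, plus strand) holds a match to TGANTCA 244 bases before the start and none to TTCNNNGAA.
Il17a: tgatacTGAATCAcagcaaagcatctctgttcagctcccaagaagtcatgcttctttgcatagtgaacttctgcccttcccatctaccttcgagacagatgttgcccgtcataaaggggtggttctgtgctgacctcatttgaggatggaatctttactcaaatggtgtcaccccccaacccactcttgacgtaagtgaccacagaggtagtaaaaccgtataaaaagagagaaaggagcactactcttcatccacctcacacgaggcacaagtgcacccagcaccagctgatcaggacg

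Such matches are common among promoters, so they are given as a description. A match to TTCNNNGAA was in 757 of the 11298 windows of the 8829 compared genes that have one (6.70%). It was in 7.24% of 870 windows of genes called higher and 6.63% of 347 windows of genes called lower. The stricter TTCCNGGAA, which is contained in it, was in 1.26% of all windows, 1.61% of those of higher genes and 2.02% of those of lower genes. TGANTCA, counted with any letter at its centre, was in 4.87% of all windows, 8.28% of those of higher genes and 7.20% of those of lower genes. The single windows of Il21, Il17f, Il23r, Batf, Tbx21, Timp1 and Rora held neither set of letters.

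The IL-6 receptor chains themselves differed little between the cultures. Il6ra had 1473 counts in Th0 against 1745 in Tfh-like, a log2 fold of 0.29 (0.19 to 0.39). Il6st, the signalling chain, had 1015 and 684, a log2 fold of -0.53 (-0.67 to -0.39). Downstream of them, Stat3 (chr11:100885098-100939540, minus strand) had 5399 counts in Th0 against 15845 in Tfh-like, a log2 fold of 1.59 (1.55 to 1.64). Its length-scaled level was 33.3 FPKM in Th0 and 102 FPKM in Tfh-like, which put it second to Jak3 among the 20 genes of the receptor and JAK-STAT list in Tfh-like. The kinase gene Jak2 had 3332 and 8319 counts (1.36), while Jak1 had 5059 and 5574 (0.18) and Tyk2 1812 and 1899 (0.11). The STAT5 genes, which relay IL-2, were also higher, Stat5a with 2197 and 5230 counts (1.29) and Stat5b with 3185 and 6436 (1.06). Stat2, a STAT of interferon signalling, had 493 and 989 counts (1.04). Of the 20 genes of the list, 6 were called higher and 0 lower, with a median log2 fold of 0.21. When libraries were scaled by the sum of the listed counts, 3 of the 20 were called.

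Genes known as targets of IL-6 and STAT3 lay on the higher side: 12 of 24 were called higher and 0 lower, and their median log2 fold was 1.08. Beside Il21 and the feedback inhibitor Socs3, the largest difference was in Bcl3, an atypical NF-kappaB inhibitor protein that acts in the nucleus, with 467 counts in Th0 against 4103 in Tfh-like (3.17, interval 3.04 to 3.32). Fosl2, an AP-1 factor, had 1625 and 7498 counts (2.25), and Il4ra, a chain of the IL-4 receptor, had 2332 and 9531 (2.07). Pim1, a kinase gene, had 336 and 1195 (1.87), and Hif1a, the oxygen-regulated factor, had 4014 and 9234 (1.24). Of the 8 SOCS family genes compared, 3 were called higher. Socs3 had 101 counts in Th0 against 4010 in Tfh-like (5.33, interval 5.07 to 5.65), Socs1 had 567 and 1589 (1.53) and Cish had 962 and 2658 (1.51). Per length, Socs3 moved from sixth of the 8 in Th0, at 2.05 FPKM, to first in Tfh-like, at 85.2 FPKM. Socs2, by contrast, had 130 and 146 counts (0.21) and was not called.

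**Figure D2:**
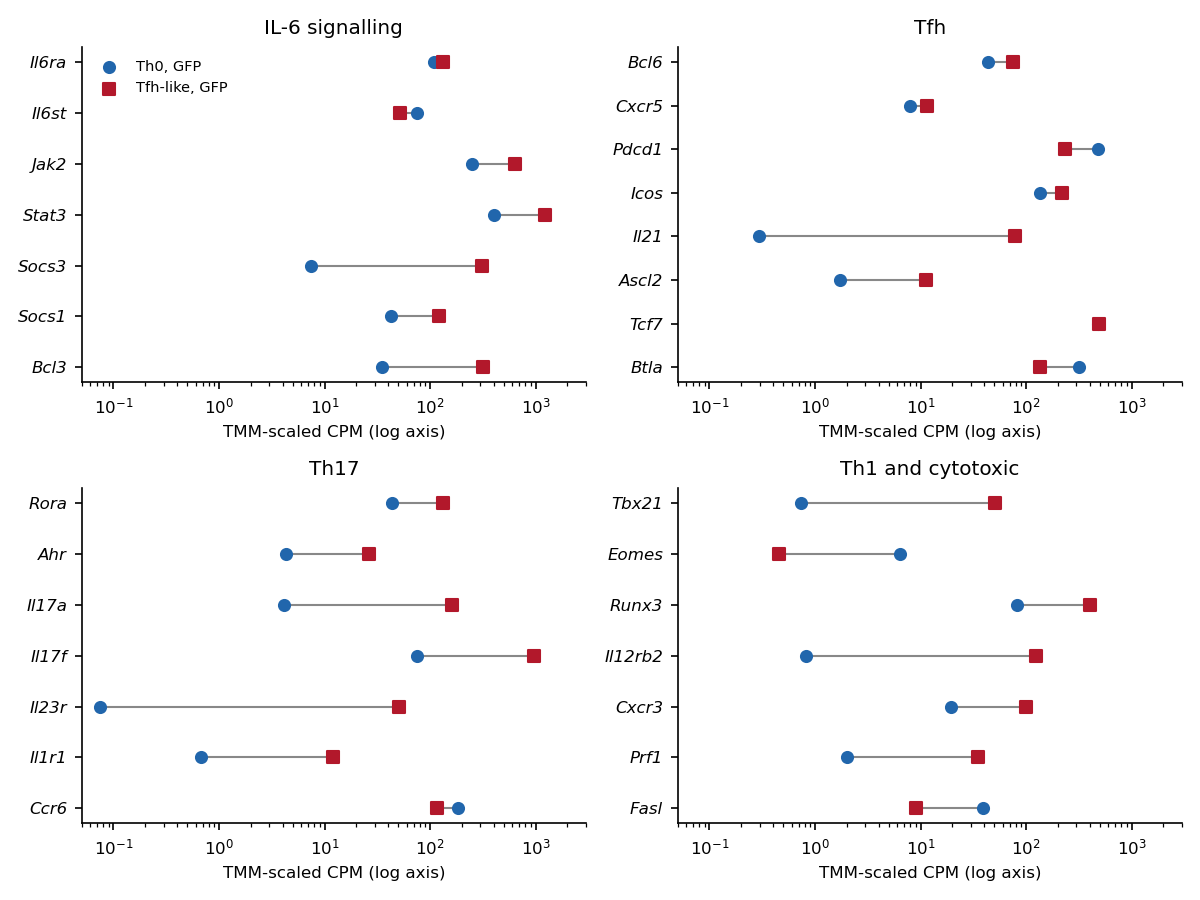
Level of helper T-cell genes in the Th0 (blue circles) and Tfh-like (red squares) libraries with the GFP virus, as TMM-scaled CPM on a log axis, in 4 groups named over the panels. Il21, Il23r, Socs3, Tbx21 and Il12rb2 lie far apart between the libraries, while Il6ra lies close and the points of Tcf7 coincide.

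Tfh genes did not move one way. Of 30 compared, 8 were called higher and 5 lower, beside shares of 7.78% and 3.11% over all genes. The median log2 fold was -0.01, the same as over all genes. Bcl6, the factor that directs the Tfh program, had 591 counts in Th0 against 977 in Tfh-like, a log2 fold of 0.77 (0.62 to 0.92), short of 2-fold. Cxcr5, the receptor that guides cells into follicles, had 106 and 150 counts (0.53), and the co-stimulator Icos had 1837 and 2881 (0.69). Tcf7 and Lef1, factors that act upstream of Bcl6, had log2 folds of 0.01 and -0.00. Called higher, beside Il21, Maf and Batf, were Ascl2, a factor that induces Cxcr5, with 23 and 146 counts (2.61), endogenous Tox2 with 144 and 851 (2.59), the purinergic receptor P2rx7 with 154 and 378 (1.33), and S1pr2, which holds cells in the germinal centre, with 385 and 815 (1.12). Called lower were the inhibitory receptors Pdcd1, with 6417 and 3054 counts (-1.03), and Btla, with 4282 and 1773 (-1.23). Lower too were the octamer-binding factor Pou2f2 with 4526 and 1858 (-1.24), its coactivator Pou2af1 with 2112 and 888 (-1.21), and Slamf6, a receptor in contacts with B cells, with 2251 and 1090 (-1.003). Slamf6 lies at the threshold, and the number of Tfh genes called lower was between 4 and 6 over the scalings, prior counts, filters and trend removal tried. Tox had 1455 and 839 counts (-0.75) and was not called.

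Genes known to oppose the Tfh fate were more often higher than lower, with 9 of 17 called higher, 1 lower and a median log2 fold of 1.06. Runx3 had 1108 counts in Th0 against 5209 in Tfh-like (2.27), Id2, an inhibitor of E proteins, 864 and 3983 (2.24), and Runx2 246 and 811 (1.75). The IL-2 receptor chains Il2ra and Il2rb had 5402 and 12209 counts (1.22), and 10587 and 21900 (1.09). The 1 gene called lower was Klf2, a factor that keeps cells in recirculation, with 2542 and 843 counts (-1.55). Prdm1, which encodes the Bcl6 antagonist Blimp-1, had 15 and 20 counts, and its interval of -0.58 to 1.53 includes no difference. In the wider list of 20 IL-2 and STAT5 genes, 8 were called higher and 1 lower (median 0.71). The 1 lower gene was Il2 itself, with 185 counts in Th0 against 74 in Tfh-like (-1.26, interval -1.69 to -0.88).

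The Th17 list had the highest median of those described, 1.59, with 14 of 23 genes called higher and 0 lower. Il17f (chr1:20777146-20790617, minus strand) had 1018 counts in Th0 against 12709 in Tfh-like (3.68, interval 3.59 to 3.78). Its neighbour Il17a (chr1:20730905-20734496, plus strand) had 56 and 2125 (5.24, interval 4.91 to 5.70). Per length, Il17f was at 386 FPKM in Tfh-like, the highest of the 22 cytokine genes compared, with Ltb at 227 FPKM, Il17a at 111 FPKM and Il21 at 11.8 FPKM. In Th0 the first was Ltb at 160 FPKM, followed by Tgfb1 at 79.8 FPKM and Il17f at 29.6 FPKM. Receptors of Th17 cells were higher as well: the IL-1 receptor Il1r1 had 9 and 157 counts (3.90, or 3.18 with a prior count of 10), its decoy Il1r2 had 44 and 238 (2.42), and Il17re had 19 and 88 (2.14). Il23r had 1 and 657 counts, and with a single count in Th0 its interval runs from 6.92 to 14.71 and its log2 fold from 5.96 to 8.82 over the prior counts tried. Among the factors, Ahr, the aryl hydrocarbon receptor, had 58 and 347 counts (2.58) and Rora had 586 and 1717 (1.59). Ccr6, a homing receptor of Th17 cells, had 2487 and 1521 counts (-0.67) and was not called.

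Th1 and cytotoxic genes split: 10 of 23 were called higher and 4 lower, with a median of 0.70. Tbx21, which encodes T-bet, the factor that directs Th1 cells (chr11:97098071-97115331, minus strand), had 10 counts in Th0 against 657 in Tfh-like (5.82, interval 5.19 to 7.15). Il12rb2, the IL-12 receptor chain that Th1 cells carry (chr6:67291318-67376188, minus strand), had 11 and 1635 (7.02, interval 6.41 to 8.26). Cxcr3, a chemokine receptor of Th1 cells, had 264 and 1300 counts (2.33), and Prf1, which encodes perforin, had 27 and 461 (4.04). The 4 lower genes were Eomes, the other T-box factor, with 85 and 6 counts (-3.41, interval -5.27 to -2.60), the death ligand Fasl with 523 and 119 (-2.08), and the chemokines Ccl5 with 90 and 28 (-1.58) and Ccl4 with 349 and 159 (-1.08). With GC and length trends removed Ccl4 was at -0.96 and no longer called, which left 3 lower. With a prior count of 10 the log2 folds of Tbx21, Il12rb2 and Eomes were 5.10, 6.33 and -2.55. Ifng, Il4, Il10, Il22 and Foxp3 were not among the genes listed. Of the CD8 markers, Cd8b1 had 135 and 138 counts and Cd8a was not listed. The part of other cells in these differences was not tested. Of 6 Th2 genes compared, Il4ra and the chemokine receptor Ccr4 (1320 and 3442 counts, 1.42) were called higher and Ccr8 (434 and 131, -1.67) lower, and Gata3, the Th2 factor, had 803 and 425 (-0.87).

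**Figure D3:**
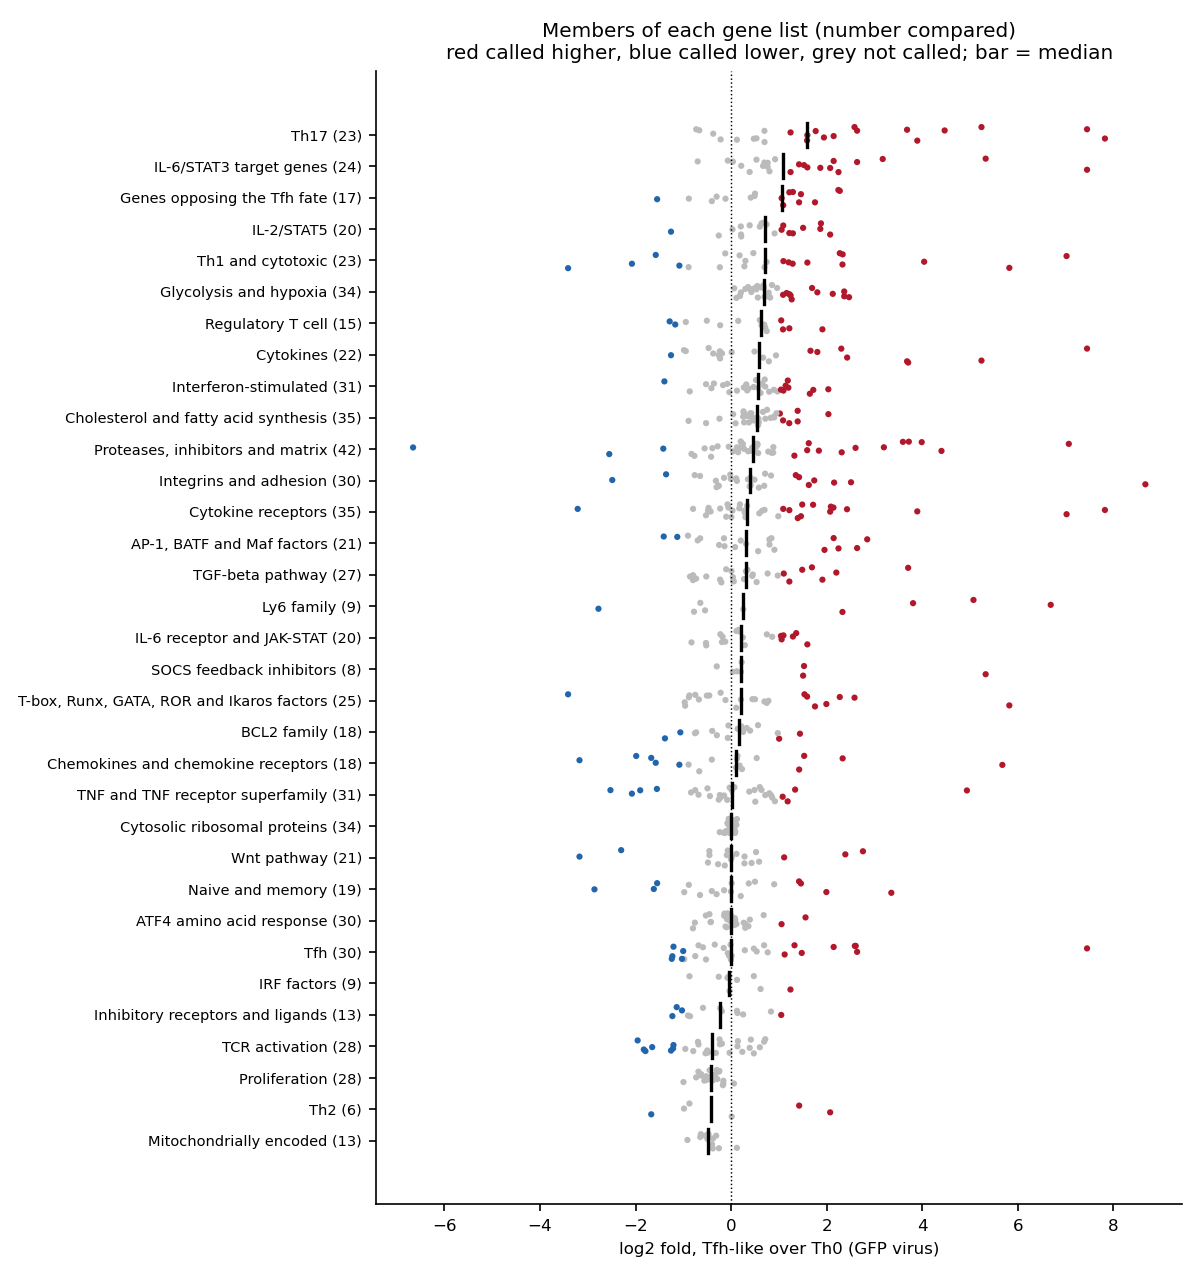
Log2 fold of Tfh-like over Th0 with the GFP virus (x axis) for every compared member of 33 gene lists, ordered by their medians (black bars), with red and blue points for genes called higher and lower. The Th17 list has the highest median, 1.59, and the mitochondrially encoded list the lowest, -0.48.

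Over the 22 cytokine genes compared, 8 were called higher and 1 lower, with a median of 0.58. Tgfb3, a TGF-beta ligand, had 42 counts in Th0 against 555 in Tfh-like (3.70, interval 3.31 to 4.25), Spp1, which encodes osteopontin, 283 and 1366 (2.31), the growth factor Vegfa 592 and 2013 (1.80) and the IL-6 family cytokine Lif 352 and 1085 (1.66). Tgfb1, in contrast, had 6840 and 5659 (-0.23). Of 35 cytokine receptor genes, 13 were called higher and 1 lower, with a median of 0.33. Il21r, the receptor chain for IL-21, had 3117 and 7961 counts (1.39), the IL-10 receptor chain Il10ra 61 and 258 (2.09), and the survival receptor Il7r 647 and 1733 (1.46). The 1 lower gene was Il9r, the IL-9 receptor, with 169 and 16.

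Chemokine genes and their receptors were called in both directions, 4 higher and 5 lower of 18. The chemokine receptor gene Cxcr4 had 655 and 1839 (1.53). In the TNF superfamily 4 of 31 genes were higher and 4 lower. Tnfrsf8, which encodes CD30, had 61 and 1868 counts (4.93). Tnfsf11, which encodes RANKL, had 4301 and 1422 (-1.55), Tnfrsf13c, the BAFF receptor, 999 and 167 (-2.52), and the ligand Cd70 94 and 23 (-1.90). In the TGF-beta pathway list 7 of 27 genes were called higher and 0 lower. They included Smad3, which carries the receptor's signal, with 292 and 1311 counts (2.20), and Lrrc32, which encodes the TGF-beta anchoring protein GARP, with 84 and 312 (1.91). Of 21 AP-1, BATF and Maf genes, 5 were higher and 2 lower, with Jun at 200 and 758 counts (1.95) and Batf3 at 4 and 40 (2.85, or 1.87 with a prior count of 10). Irf4, the partner of Batf in T cells, had 5652 and 7632 (0.48) and was not called.

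Genes that T-cell receptor signalling induces were on the lower side. Of 28 compared, 7 were called lower and 0 higher, and the median log2 fold was -0.40. Nr4a1, which encodes the nuclear receptor Nur77 (chr15:101254269-101274795, plus strand), had 7114 counts in Th0 against 1946 in Tfh-like (-1.83, interval -1.90 to -1.76). Its relative Nr4a3 had 2024 and 566 (-1.79), the phosphatase gene Dusp5 1436 and 358 (-1.96), and the early growth response factor Egr3 2903 and 896 (-1.65). Spry1, an inhibitor of receptor signalling to ERK, had 2204 and 921 (-1.22), and Nfkbid 435 and 182 (-1.21). The adhesion receptor Cd44, which marks activated cells, had 6272 and 4882 (-0.32). Of the 13 inhibitory receptor genes, Ctla4 was called higher with 3368 and 6767 counts (1.05), and Pdcd1, Btla and Cd160 were called lower.

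The metabolic lists lay on the higher side. All 34 genes of glycolysis and the hypoxia response had a log2 fold above 0, 11 were called higher and 0 lower, and the median was 0.69. Egln3, a prolyl hydroxylase that acts on HIF-1alpha, had 1720 counts in Th0 against 9248 in Tfh-like (2.47, interval 2.39 to 2.54). P4ha2, a collagen prolyl hydroxylase, had 294 and 1481 (2.37), the stress response gene Ndrg1 1381 and 6924 (2.37), and the glucose transporter Slc2a3 4941 and 20961 (2.13). The hexokinase gene Hk1 had 7209 and 16858 (1.27), whereas the lactate dehydrogenase gene Ldha had 49079 and 53988 (0.18) and Pgk1 17892 and 23243 (0.42). In cholesterol and fatty acid synthesis 6 of 35 genes were called higher and 0 lower, with a median of 0.54. The stearoyl-CoA desaturase genes Scd1 and Scd2 had 727 and 2901 counts (2.04), and 13201 and 29789 (1.22). Fasn, the fatty acid synthase gene, had 8852 and 8854 (0.04).

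Of 28 proliferation genes 27 had a log2 fold below 0, and none of them reached 2-fold. The median was -0.41, and the lowest was Tyms, thymidylate synthase, with 1513 and 735 counts (log2 fold -0.998, just short of 2-fold). Mki67, the gene of the cycling marker Ki-67, had 8909 and 6851 (-0.34), and the replication helicase gene Mcm2 had 3761 and 2199 (-0.73). The 34 cytosolic ribosomal protein genes had a median of -0.00 and no called member. The 13 mitochondrially encoded transcripts had a median of -0.48, which became -0.11 with the trends over GC content and length removed.

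**Figure D4:**
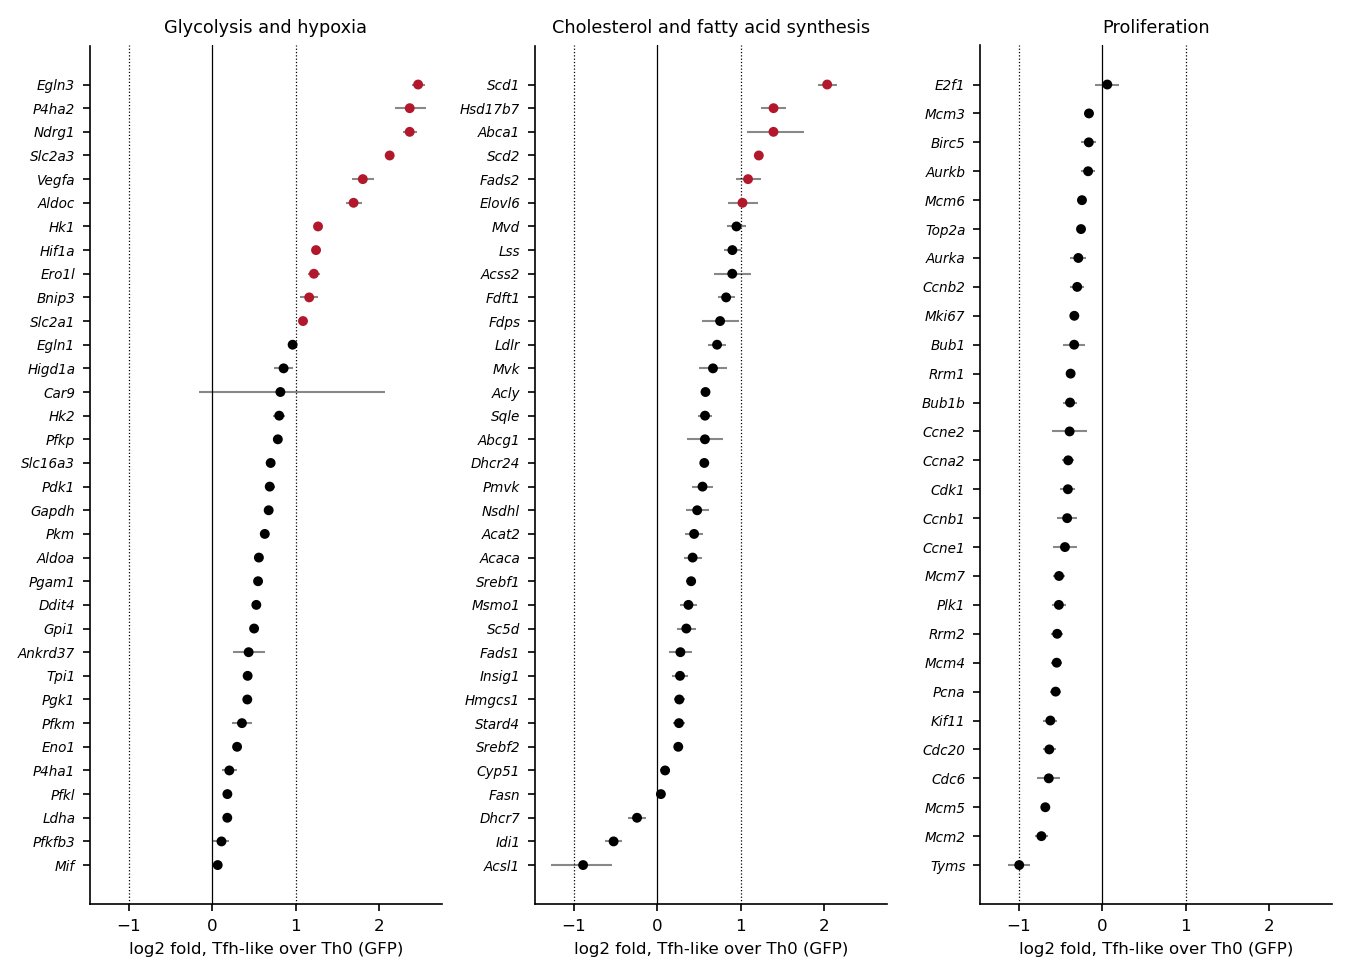
Log2 fold of Tfh-like over Th0 with the GFP virus (x axis) with its 95% counting interval for the members shown of 3 lists, with red points for genes called higher and dotted lines at 2-fold. All 34 glycolysis and hypoxia genes lie above 0, and 27 of 28 proliferation genes lie below 0 without being called.

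Several of the genes furthest apart are in none of the helper lists. Tgm2, a transglutaminase that cross-links proteins (chr2:158116402-158146436, minus strand), had 30 counts in Th0 against 4434 in Tfh-like (7.16, interval 6.73 to 7.82). Gipr, a receptor for the gut hormone GIP, had 6 and 534 (6.11, or 5.13 with a prior count of 10), the metallothionein gene Mt2 17 and 897 (5.61), and Cd24a, a surface glycoprotein, 54 and 2168 (5.32). Among proteases, inhibitors and matrix genes, 12 of 42 were called higher and 3 lower. Serpinf1, a serpin family gene, had 221 and 2614 (3.59) and fibronectin, Fn1, 19 and 429 (4.40). Among integrin and adhesion genes 7 of 30 were higher and 2 lower, with the integrin chains Itga7 at 664 and 3679 counts (2.51) and Itga3 at 1907 and 8255 (2.15), and Cadm1 at 1123 and 193 (-2.49). Igfbp4, an IGF-binding protein, had 1127 and 11195 counts (3.35), and Satb1, a chromatin organiser, 2807 and 10857 (1.99).

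Among the 15 lower genes with the largest differences after counting error was Lad1, a basement membrane protein, with 3144 counts in Th0 against 218 in Tfh-like (-3.80, interval -4.01 to -3.61). Nrgn, which encodes the calmodulin-binding protein neurogranin, had 3141 and 403 (-2.91), the activity-regulated gene Arc 768 and 65 (-3.48), and the ligand Bmp2 587 and 53 (-3.38). Dapl1 had 685 and 90 (-2.86). Of 18 BCL2 family genes compared, 2 were called higher and 2 lower, with a median of 0.17. The lower ones were the pro-apoptotic genes Bcl2l11, which encodes BIM, with 4742 and 1763 counts (-1.38), and Bid, with 228 and 105 (-1.06). The higher ones were Bcl2l14 (1.44) and Bcl2l2, which lay just above 2-fold. At the low end of expression, 7 genes had 0 counts in Tfh-like and none in Th0 had 0. Among these, Ghrh, with 25 counts in Th0, was at least 8.09-fold lower when the 0 is read as the floor of 3 counts in that library.

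Interferon-stimulated genes were partly higher, with 8 of 31 called higher, 1 lower and a median of 0.57. Gbp2, a guanylate-binding protein, had 1284 and 5113 counts (2.03), Gbp5 403 and 1293 (1.72), Oas3 334 and 1020 (1.65), and Irf1, an interferon-induced factor, 494 and 1137 (1.24). Isg20 had 258 and 94 (-1.40). Reads of Gbp genes can be shared with close paralogs, so single values in that family are uncertain. The same holds for the Ly6 family, in which 4 of 9 genes were higher and 1 lower.

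Other lists had few called members or members in both directions. Of 15 regulatory T-cell genes 4 were called higher and 2 lower (2 and 3 with the sum of the listed counts). The higher ones included Gpr83, with 63 and 132 counts (1.09). It was not called with the sum of the listed counts (0.99) or with a prior count of 10 (0.999). The lower ones included Nt5e, which encodes CD73, with 4313 and 1717 (-1.29), and Nrp1 with 1770 and 763 (-1.17). Among 21 Wnt pathway genes the receptors Lgr4 (47 and 320 counts, 2.76) and Fzd7 (131 and 675, 2.39) were higher, together with Tcf7l1. The ligands Wnt1 and Wnt10b were lower. Wnt1 had only 18 and 2 counts, and its log2 fold depends on the prior count (-1.22 with 10). Of 19 genes of naive and memory cells 4 were higher and 3 lower, the latter with Klf3 at 712 and 224 counts (-1.62). In the 30 genes of the ATF4 amino acid response 2 were higher and 0 lower, with a median of -0.00. These numbers are near the shares over all genes, 7.78% higher and 3.11% lower. With the sum of the listed counts 1 of the 30 was called higher. Zeb2, a zinc finger factor of effector cells, had 63 and 181 counts (1.53).

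The same cultures were compared with the Tox2 virus, in 2 libraries that the GFP pair does not use. They carry forced Tox2 and are therefore not a replicate. With the Tox2 virus 719 genes were called higher in Tfh-like (6.56%) and 314 lower (2.86%), 1033 in all (9.43%). Called higher with both viruses were 549 genes, 64.4% of those with GFP and 76.4% of those with Tox2. Called lower with both were 170, 49.9% and 54.1%. Of the 853 genes called higher with GFP 827 were above 0 with Tox2, and of the 341 called lower 304 were below 0. Over all genes compared the median log2 fold with Tox2 was 0.0009, so they lay about evenly on both sides of 0.

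Il17f, Maf and Batf were higher in Tfh-like with both viruses, by different amounts. With Tox2, Il17f had 70 counts in Th0 against 2593 in Tfh-like (5.22, against 3.68 with GFP), so both libraries were lower than their GFP counterparts. Maf had 72 and 1208 counts with Tox2 (4.08, against 2.64), and Batf 587 and 4882 (3.11, against 2.15). Il12rb2 and Tgm2, which were named for their folds with GFP, had log2 folds of 3.96 and 3.43 with Tox2. Other genes were called with GFP and lay near 0 or below it with Tox2. Smad3 had a log2 fold of 0.02 with Tox2, Scd1 0.31, Scd2 0.00 and Fads2 -0.45, and the median of the cholesterol and fatty acid list was -0.14, against 0.54 with GFP. With Tox2 the glycolysis and hypoxia list had 0.43, the T-cell receptor list -0.37 and the proliferation list -0.40. Il2ra, higher with GFP by 1.22, had a log2 fold of -0.89 with Tox2. None of these differences between the viruses could be tested, since no library is left to measure the spread.

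**Figure D5:**
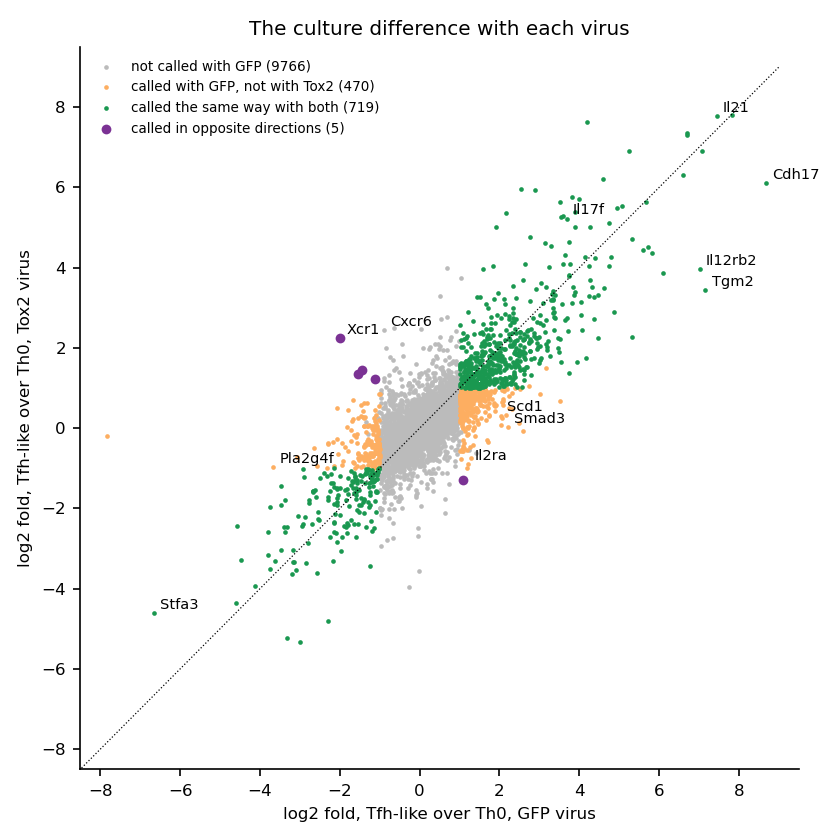
Each point is 1 of 10960 genes, with the log2 fold of Tfh-like over Th0 with the GFP virus on the x axis and with the Tox2 virus on the y axis; the dotted line marks equal folds. Green points (719 genes) were called the same way with both viruses, orange points (470) with GFP and not with Tox2, and purple points (5) in opposite directions.

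In 1 gene the Th0 library with the GFP virus stood apart from the other 3 by at least 8-fold upwards. Gm10800 (chr2:98666547-98667301, minus strand), a predicted gene singled out after its values were seen, had 5391 counts there. It had 21 in the other GFP library, and 11 (Th0) and 9 (Tfh-like) in the pair with the Tox2 virus. Its log2 fold of -7.83 between the GFP libraries was not seen with the Tox2 virus (-0.20). In the Tfh-like library with the GFP virus 2 genes stood at least 8-fold above the other 3 libraries, Gap43 (13 and 237 counts) and Tmem163 (6 and 227). Below them stood 4, Slc1a2, H2-Eb2, Ghrh and Pla2g4f. Pla2g4f, a phospholipase A2 gene, had 598 and 44 counts in the GFP pair (-3.66) and 792 and 386 in the Tox2 pair (-0.98). Ebf1, a B-cell factor, had 20 and 380 counts with GFP (4.16) while Cd79a, the other listed B-cell marker, had 19 and 10.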

How the data were processed

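RNA-seq was measured in 4 libraries, 1 per group, and the 2 with the GFP-only virus are compared here. Per the labels' protocols, Trizol was used for extraction and BGI made the libraries. The deposited files hold whole-number read counts per gene, not normalized by the authors per the file headers and values, and FPKM, which the authors computed per the file headers. Among the tools in the submitters' processing notes are featureCounts of Subread, Bowtie2 and Trim Galore 0.4.4, with edgeR and MACS2, and the build is mm10; no roles are stated. Annotation and strand use in counting were not given in the sources used here, so genes with paralogs or overlapping neighbours are uncertain. Every gene listed had at least 0.658 CPM in its second-highest library, so genes silent in most libraries were not in the tables.

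Counts were scaled by TMM over 4 libraries (edgeR 4.0.16, R 4.3.3; factors 1.03 for Th0 and 0.966 for Tfh-like with GFP). The 10960 genes that reached a CPM of 1 in any of the libraries were kept. Log2 folds used a prior count of 2 and an exact 95% conditional binomial interval. Without molecular identifiers several reads can come from 1 molecule, so intervals and floors (3 counts) cover counting error only. FPKM was used only to compare levels between genes. The procedure was tested on simulated counts with known folds and counting (Poisson) error only, which is what the interval assumes. That test therefore cannot show how the calls fare with spread between libraries. Alternatives changed the scaling, including DESeq2 1.42.0 size factors, the prior count, the filter, the call and the GC and length trends.

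The comparison, the gene lists and the genes named were chosen with earlier results of these data known. The naming rule takes the 15 higher and 15 lower called genes with the largest interval end nearest 0 at a CPM of at least 5, without predicted genes, receptor segments or histones. To these it adds a fixed set of helper genes and up to 4 called members per list and direction. It also adds up to 5 genes called in opposite directions with the 2 viruses, at the same CPM in a GFP library. Cnksr3 and Prss12 reach that level, while Mab21l3, Enthd1 and Xcr1 do not and are given below as well. Further list members in the text were picked with their values in view. Gene positions are from GENCODE M21 on GRCm38, matched for 10938 genes, and promoter windows from RefSeq GRCm38.p6 match 8829 of the 10960 genes by symbol. Some genes that the rule takes are not reported here.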

Additional observations from a re-analysis of the deposited data

Results flagged for a closer look

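In 5 genes the difference between the cultures was called with both viruses and pointed in opposite directions, and the difference itself was not tested. With counts given for Th0 first, Cnksr3 had 106 and 34 with GFP, a log2 fold of -1.55, and 42 and 106 with Tox2 (1.35). Prss12, a secreted protease gene, had 101 and 44 with GFP (-1.12) and 79 and 182 with Tox2 (1.24). Mab21l3 had 57 and 19 with GFP (-1.45) and 14 and 40 with Tox2 (1.44). Enthd1 had 10 and 23 with GFP (1.10) and 26 and 9 with Tox2 (-1.30). Xcr1, a chemokine receptor gene, had 10 and 1 with GFP (-1.99) and 3 and 21 with Tox2 (2.24). All of these counts were at most 182.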

How the results depend on the processing

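Under 10 of the 11 alternatives the number of genes called higher stayed between 748 and 883 and the number lower between 245 and 411, against 853 and 341. Requiring the interval end nearest 0 to be at least 2-fold left 568 higher and 164 lower, and 349 and 101 with both viruses. Scaling by the sum of the listed counts gave 748 higher and 411 lower, moving the median of all genes from -0.01 to -0.11. Among others, the log2 folds of Stat5b, Ctla4, Trib3, Gpr83 and Bcl2l2 then fell short of 2-fold. With a prior count of 10, folds of genes with few counts in 1 library were smaller in size, most in Cdh17 (6.80 against 8.67), Il23r (5.96 against 7.82), Ly6i (3.31 against 5.07) and Stfa3 (-5.11 against -6.65), and also in Il21 (6.24 against 7.45). Removing the GC and length trends ended the call of Ccl4 (-0.96). No called gene that is named reversed its direction. That was largely fixed in advance, since filters leave a fold unchanged, prior counts keep its sign and the scalings shifted folds by far less than 2-fold. Over the named genes 1474 values stayed and 61 moved, and over list medians 338 stayed and 12 moved. The Tfh median ranged from -0.10 to 0.11. No paired analysis was possible because the labels carry no replicate numbers and each group is 1 library, which also leaves no library to leave out.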
